A study of Mus musculus with 4 samples.

Results

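The genes of the cytosolic ribosomal proteins were followed across sorted plasma cells of normal and myeloma-bearing mice. They were taken by symbol, as every gene column whose name starts with Rpl, Rps or Rplp and a number, together with Rpsa, and without the Rps6k kinases. This gave 95 of the 24421 genes in the tables. Of these, 46 encode proteins of the large (60S) subunit and 31 encode proteins of the small (40S) subunit. A further 8 are paralogues, meaning separate genes for a close relative of a subunit protein, and 9 are copies named as pseudogenes or retrotransposed genes. The last, Rps19bp1, encodes a protein that binds Rps19 and is not itself a ribosomal protein.

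The 4 single-cell RNA libraries were made from mouse cells of the C57/BL6 background that carried CD138 and lacked B220 (CD138+ B220-), the surface pattern used to sort plasma cells. WT_BM is a library from wild-type bone marrow, described as an age-matched control. VQ_BM (2 libraries) and VQ_LN (1 library) hold donor-derived myeloma cells labelled D2 from the bone marrow and a lymph node of recipients. Their genotype is V{kappa}*MYC (a human MYC transgene under immunoglobulin kappa elements), Nras LSL Q61R/+ (a mutant Nras allele behind a removable stop) and IgG1-Cre, a recombinase expressed from an immunoglobulin heavy chain locus in activated B cells. No treatment, age or number of animals is given, and neither is whether the VQ libraries share a donor or an animal. The p-values below therefore rest on the spread among these libraries alone, and that spread may be technical.

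A eukaryotic ribosome holds a single copy of nearly every ribosomal protein, so the messages of these genes are usually kept in step. Most of them begin with a 5′ terminal oligopyrimidine (TOP) tract, through which mTOR and Larp1 set how well they are translated, and MYC is known for driving ribosome production. Normal plasma cells no longer divide and give most of their translation to antibody, whereas myeloma cells divide. Because Jchain, the joining chain of secreted antibody, took a large share of UMIs (counted transcripts) in WT_BM, levels are given as UMIs scaled to a common total without Jchain (CPM).

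WT_BM cells were used where Jchain made up at least 5% of their UMIs, and VQ cells where it made up less than 5%. This left 106 of 163 cells in WT_BM, 226 of 245 and 170 of 188 in VQ_BM replicates 1 and 2, and all 185 in VQ_LN. The UMIs other than Jchain in these cells numbered 162471 in WT_BM, 1039024 and 441973 in VQ_BM, and 799731 in VQ_LN. The median cell held 1998.5 UMIs in WT_BM against 2646 to 4700 in the VQ libraries. All 13 plasma cell markers, Jchain included, had UMIs in every library. Without Jchain they summed to 34665 CPM in WT_BM and to between 14283 and 15555 CPM in the VQ libraries. Neutrophil markers (10 genes, led by S100a9 or Prtn3) summed to 80 CPM in WT_BM, 1027 and 2937 CPM in VQ_BM and 15 CPM in VQ_LN, and in VQ_BM replicates 1 and 2 only 3 and 4 cells held at least 3 such UMIs. No cell barcode was shared between libraries.

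Ribosomal protein messages took a smaller share of UMIs in the normal plasma cells than in the myeloma cells of either site. The share was 12.1% in WT_BM (95% exact binomial interval 11.98 to 12.30). It was 18.5% and 17.6% in VQ_BM replicates 1 and 2 and 18.0% in VQ_LN, with intervals that together span 17.51 to 18.54. These intervals cover counting error only, and with 1 WT_BM library the difference has no test over libraries. The values are shares of what was counted, so they hold no measure of the amount of ribosomal protein message per cell.

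**Figure D1:**
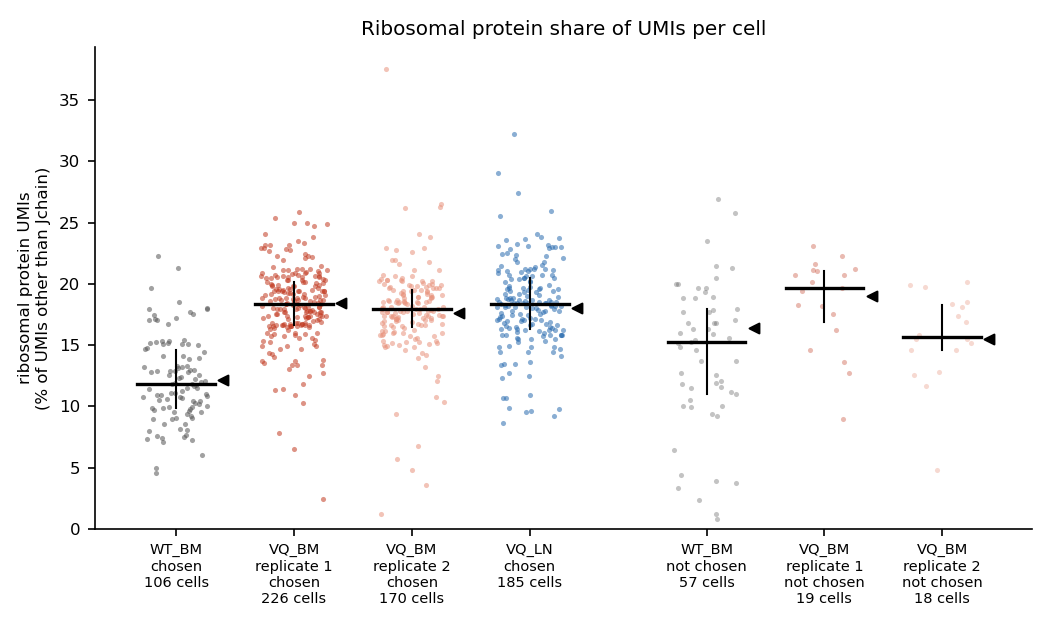
Share of ribosomal protein UMIs in each cell, in percent of its UMIs other than Jchain, by library, for the cells used and the cells left out by the Jchain rule. Points are cells, horizontal lines medians, vertical lines quartiles and triangles the share over all UMIs of the library: the median of the WT_BM cells used is 11.8%, and the VQ medians lie at 17.9% to 18.4%.

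The cells left out by the Jchain rule differed between genotypes. The 57 WT_BM cells with little Jchain had a share of 16.4%, above the 12.1% of the WT_BM cells used. These 57 cells carried markers of B cell precursors (all 9 of 9 with UMIs, summing to 5476 CPM and led by Dntt) and of neutrophils (7 of 10, summing to 7230 CPM), against 197 and 80 CPM in the WT_BM cells used. At least 3 precursor marker UMIs were held by 25 of the 57 cells, and at least 3 neutrophil marker UMIs by only 2. Plasma cell markers, Jchain included, reached 3 UMIs in 50 of them. The VQ_BM cells with Jchain at 5% or more, which are matched to the WT_BM cells on that rule, had shares of 19.0% (19 cells) and 15.5% (18 cells). Thinning every cell to 500 UMIs other than Jchain gave 12.2% in WT_BM and 17.6% to 18.4% in the VQ libraries, so the gap was as large at equal depth per cell. Proliferation was screened after a separate thinning to 500 UMIs that counted Jchain. Jchain took 20.4% of UMIs in the WT_BM cells used and 0.50% to 0.57% in the VQ cells used. The WT_BM cells were thus screened on fewer other UMIs. Among cells with no UMI of 48 proliferation genes in that screen, the share was 12.3% in WT_BM (69 cells) and 18.5% to 20.5% in the VQ libraries (19 to 31 cells).

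The balance between the subunits moved little. Genes of the 40S subunit gave 48.2% of subunit protein UMIs in WT_BM (95% exact binomial interval 47.5 to 48.9), 47.6% and 47.8% in VQ_BM and 47.1% in VQ_LN. The intervals of WT_BM and of both VQ_BM libraries overlap, and that of VQ_LN (46.9 to 47.4) lies just below that of WT_BM.

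Between VQ_BM and WT_BM, ribosomal protein genes were mostly higher in the myeloma cells, but by unequal amounts. Of the 82 members with enough counts to test, 51 were higher, 2 were lower (Rpl36al and Rps24) and 29 did not pass an adjusted p of 0.05 (edgeR quasi-likelihood test, Benjamini-Hochberg over 8414 genes). Among all genes tested, 17.7% were called higher and 12.0% lower. The median member was 0.58 higher on the log2 scale (1.49-fold), or 0.56 with the single member absent from WT_BM set at its lower bound, and the median of all genes tested was 0.22 higher. By subunit, 17 of 30 genes of the 40S rose and 1 fell, with a median of 0.63, and 26 of 43 genes of the 60S rose and none fell, with a median of 0.54. Of the tested members 74 of 82 had a positive fold change. Among the 85 members with at least 3 UMIs, 72 were lower in WT_BM than in every VQ library and 4 were higher, against 45.1% and 33.9% of all genes with at least 3 UMIs.

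VQ_LN gave similar counts against the same WT_BM library: 54 of 82 members were higher, 2 were lower (Rpl36al and Rpl10) and 26 were not called. Of all genes, 16.2% were called higher and 11.9% lower in that comparison. The median member was again 0.58 higher (0.56 with the absent member at its bound) and the median of all genes 0.16 higher. By subunit, 19 genes of the 40S rose, and in the 60S 28 rose and 1 fell. Both comparisons use the same WT_BM library, so any departure of that library enters both.

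These counts rest on how the spread of the single libraries is set. All 4 libraries shared a fit whose spread comes from the VQ_BM pair alone (a biological coefficient of variation of 0.0919). With a preset coefficient of 0.2 the members called higher dropped to 13 of 82 in VQ_BM (15.9%), where 11.4% of all genes were called higher. In VQ_LN they dropped to 9 of 82, where 9.70% of all genes were, so at that spread the members' share came near that of all genes. With all cells of every library 26 members (31.7%) and 22 members (26.8%) were called higher, against 10.9% and 10.2% of all genes.

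**Figure D2:**
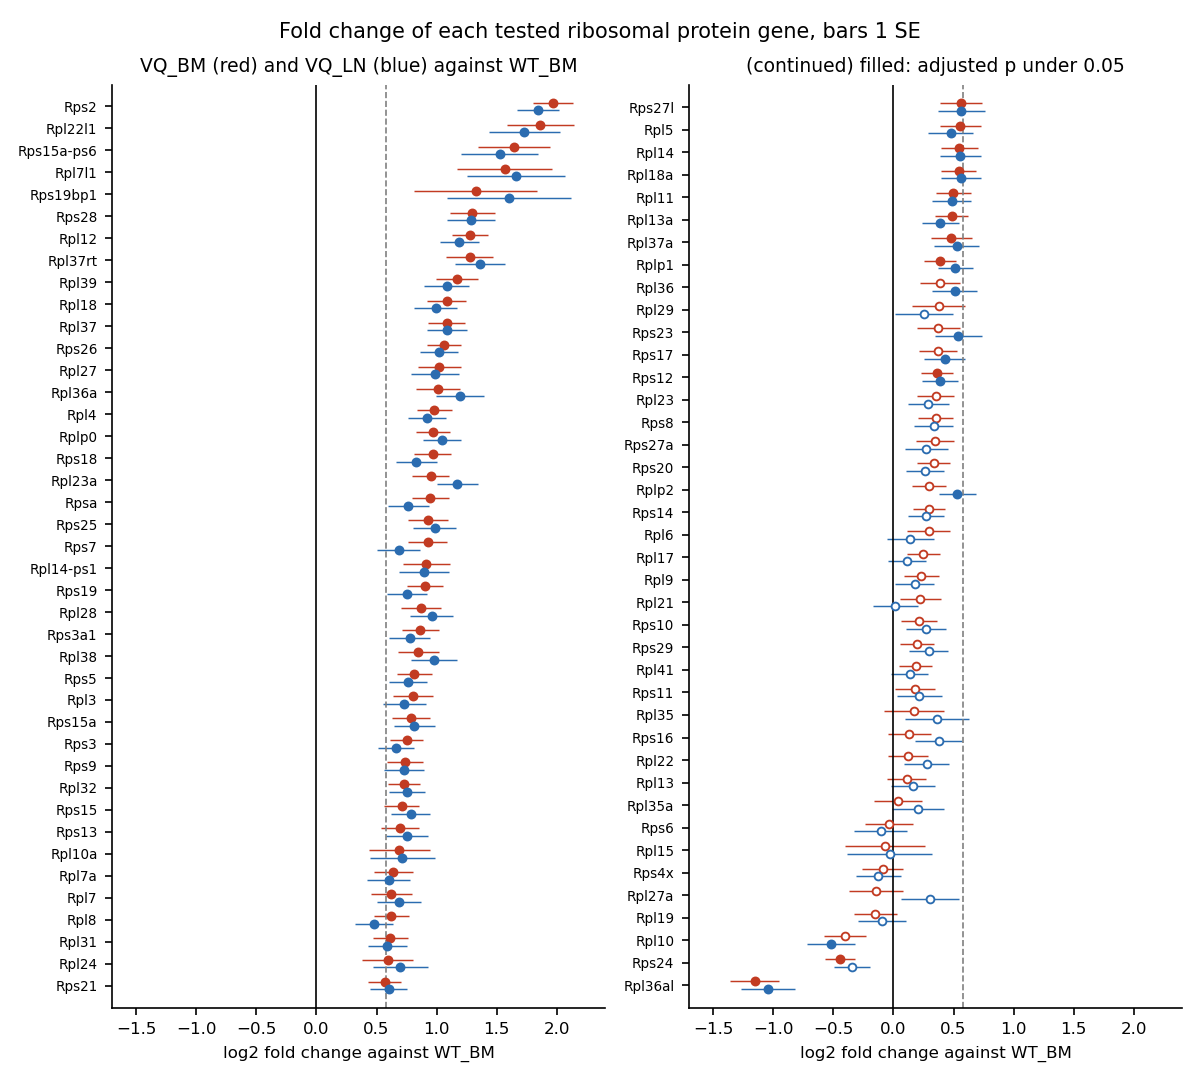
Log2 fold change of 81 tested members in VQ_BM (red) and VQ_LN (blue) against WT_BM, sorted by VQ_BM, with bars of 1 SE from the fit, filled points for an adjusted p under 0.05 and a dashed line at the VQ_BM member median of 0.58. Rps2 and Rpl22l1 stand at the top, Rps24, Rpl10 and Rpl36al at the bottom, and the member with no UMI in WT_BM is not drawn.

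Members from each side of the median are introduced by the sequence around their start, since the starts of these messages carry the TOP tract by which they are regulated as a group. RefSeq promoter windows (build GRCm38.p6, 250 bases before to 50 after the gene's start) were matched by symbol for 68 of the 95 members. The run CTCTTT was searched on the gene's strand as a short stretch of pyrimidines. It was present in 22 of the 68 windows (32.4%), against 12.0% of 27025 genes. CCGGAAG, the core bound by ETS family factors such as GABP, was searched on both strands and was in 25 (36.8%), against 9.12%. CACGTG, the E-box bound by MYC and MAX, was in 5 (7.35%), against 7.24%. None of these motifs contains another, and a match is only a description of the letters. Printed 5′ to 3′ on the gene's strand, from 50 bases before to 50 after the RefSeq start, are members called higher in myeloma (Rps2, Rpl22l1, Rpl12, Rps26), the members called lower in at least 1 comparison (Rps24, Rpl36al, Rpl10) and Rps6, whose level did not pass the test. They were picked with their values known and are not a ranking. Capitals mark CTCTTT.
Rps2, chr17:24720013-24720112, plus strand: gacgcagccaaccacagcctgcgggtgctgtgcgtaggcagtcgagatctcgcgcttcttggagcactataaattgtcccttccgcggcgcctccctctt
Rpl22l1, chr3:28805458-28805557, plus strand: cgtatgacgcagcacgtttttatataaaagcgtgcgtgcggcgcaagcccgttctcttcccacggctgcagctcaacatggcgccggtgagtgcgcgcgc
Rpl12, chr2:32961662-32961761, plus strand: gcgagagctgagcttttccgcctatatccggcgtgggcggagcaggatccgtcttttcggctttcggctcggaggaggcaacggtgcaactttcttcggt
Rps26, chr10:128626457-128626556, minus strand: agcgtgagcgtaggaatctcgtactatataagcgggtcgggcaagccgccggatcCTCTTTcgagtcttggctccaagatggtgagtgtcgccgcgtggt
Rps24, chr14:24490628-24490727, plus strand: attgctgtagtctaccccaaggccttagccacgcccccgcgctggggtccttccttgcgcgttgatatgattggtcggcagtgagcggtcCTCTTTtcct
Rpl36al, chr12:69184018-69184117, minus strand: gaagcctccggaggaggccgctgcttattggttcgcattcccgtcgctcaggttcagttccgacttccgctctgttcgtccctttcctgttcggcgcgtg
Rpl10, chrX:74270766-74270865, plus strand: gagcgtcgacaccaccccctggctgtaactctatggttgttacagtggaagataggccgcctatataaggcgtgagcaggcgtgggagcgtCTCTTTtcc
Rps6, chr4:86857318-86857417, minus strand: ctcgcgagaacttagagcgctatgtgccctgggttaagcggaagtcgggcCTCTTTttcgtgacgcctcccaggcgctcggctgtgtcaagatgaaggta
In these 100-base windows CTCTTT stood 1 base after the start in Rps6, 6 bases after it in Rps26, 41 in Rps24 and 42 in Rpl10. It was absent from those of Rps2, Rpl22l1, Rpl12 and Rpl36al. The Rps2 window ends in ctctt, so a match across its edge could not be seen. Just after the start, Rpl12 has tcttttc and Rpl22l1 has ttctcttccc, pyrimidine stretches that the exact run does not match. Absence of CTCTTT is therefore not absence of a TOP tract. Members on each side of the median both held and lacked this exact run. Annotations place the starts of some of these genes differently, so the windows hold for the RefSeq start only.

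Rps2, an RNA-binding protein of the small subunit near the entry channel of the message, had the largest increase of the subunit genes in both comparisons. Its gene lies on chromosome 17 (24718116 to 24721929, GRCm38, GENCODE vM21). Its level was 948 CPM in WT_BM (154 UMIs), 3814 and 3593 CPM in VQ_BM and 3397 CPM in VQ_LN. In the cells used, all 3 VQ libraries stood far above WT_BM and within a narrow range of each other. The VQ_BM cells left out for high Jchain stood much nearer WT_BM, at 1054 CPM (18 UMIs) and 1227 CPM (13 UMIs) in replicates 1 and 2. The WT_BM cells left out for low Jchain stood at 1946 CPM (264 UMIs). How far the gap depends on the Jchain rule was not tested. The log2 fold change was 1.97 in VQ_BM (SE 0.16, adjusted p = 2.29e-31) and 1.84 in VQ_LN (SE 0.17, adjusted p = 1.30e-23), and it passed the threshold in all 13 alternative settings with a test in each comparison.

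Rpl12, a protein of the stalk base of the large subunit, stood at 1705 CPM in WT_BM, 4251 and 4000 CPM in VQ_BM and 3888 CPM in VQ_LN. The log2 fold changes were 1.28 (SE 0.15, adjusted p = 6.71e-16) and 1.19 (SE 0.16, adjusted p = 1.34e-11). Both held in all 13 settings. Rps26, which contacts the message upstream of the start codon and is among the genes mutated in Diamond-Blackfan anaemia, stood at 2456, 5199, 5070 and 4979 CPM in the same order, a log2 fold change of 1.06 in VQ_BM (SE 0.14) and 1.02 in VQ_LN (SE 0.16). The VQ_LN call of Rps26 was lost with the preset coefficient.

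Rps28, a small protein of the 40S head, differed between the VQ_BM replicates as well as from WT_BM. It stood at 560 CPM in WT_BM, 1603 and 1127 CPM in VQ_BM and 1365 CPM in VQ_LN. The fold changes were 1.30 (SE 0.19) and 1.29 (SE 0.20) on the log2 scale, and both were lost when all cells were used. Rpl39, a very small protein of the peptide exit tunnel, rose from 763 CPM in WT_BM to 1823 and 1606 CPM in VQ_BM and 1618 CPM in VQ_LN. Its fold change was 1.17 (SE 0.17) in VQ_BM and 1.08 (SE 0.19) in VQ_LN, and the VQ_LN call was lost with the preset coefficient and with all cells.

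**Figure D3:**
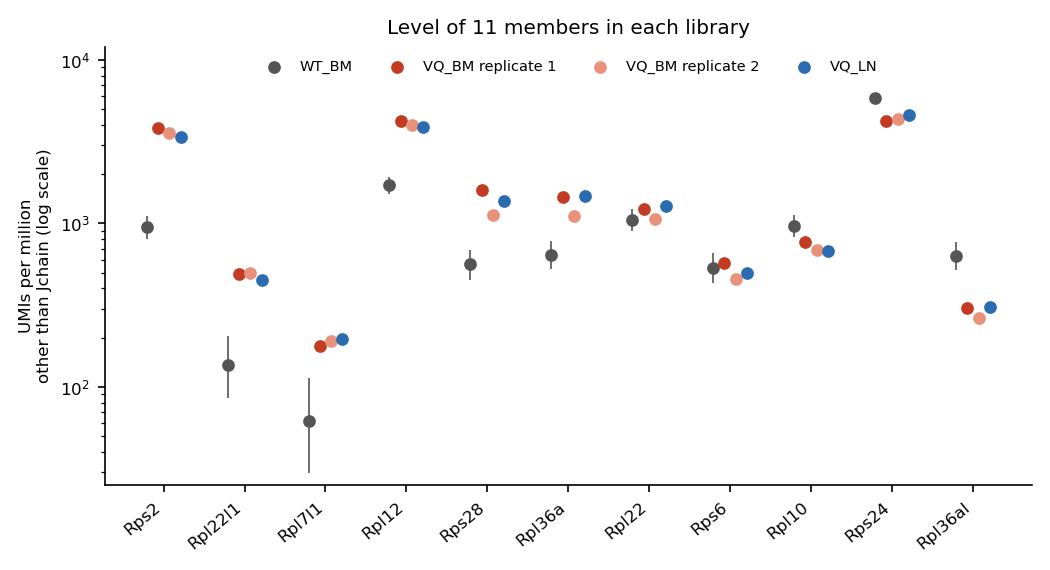
Level of 11 members in the cells used of each library in CPM, on a log scale, with the 95% Poisson interval of the WT_BM count as a bar. Rps2, Rpl22l1, Rpl7l1, Rpl12, Rps28 and Rpl36a lie higher in every VQ library than in WT_BM, Rps24, Rpl10 and Rpl36al lie lower, and for Rps6 the WT_BM point falls among the VQ points.

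The lower members were few. Rpl36al, the autosomal paralogue of the X-linked Rpl36a, stood at 634 CPM in WT_BM (103 UMIs), 301 and 262 CPM in VQ_BM and 308 CPM in VQ_LN. In the cells used, all VQ libraries were at or below 308 CPM, under the lower 95% counting limit of WT_BM (517 CPM). The VQ_BM cells left out for high Jchain stood at 995 CPM (17 UMIs) and 283 CPM (3 UMIs) in replicates 1 and 2. The WT_BM cells left out for low Jchain stood at 295 CPM (40 UMIs). How far the difference depends on the Jchain rule was not tested. The log2 fold change was -1.15 in VQ_BM (SE 0.21, adjusted p = 3.80e-07) and -1.04 in VQ_LN (SE 0.23, adjusted p = 5.67e-05). The VQ_BM call was lost only on thinned cells, and the VQ_LN call was lost with DESeq2, with the preset coefficient, with all cells and without proliferating cells.

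Rps24, a 40S protein needed for maturation of the small subunit RNA, stood at 5829 CPM in WT_BM, 4204 and 4367 CPM in VQ_BM and 4597 CPM in VQ_LN. The groups did not overlap, yet only the VQ_BM change passed the test, with -0.44 (SE 0.13, adjusted p = 0.00331) against -0.34 in VQ_LN (SE 0.15, adjusted p = 0.068). The VQ_BM call was lost in 5 of 13 settings, among them Jchain counted in the library size, DESeq2 and thinned cells.

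Rpl10, which completes the large subunit late in its maturation and is mutated in some T cell leukaemias, stood at 966 CPM in WT_BM, 771 and 683 CPM in VQ_BM and 674 CPM in VQ_LN. Here VQ_LN passed the test with -0.52 (SE 0.20, adjusted p = 0.0336) and VQ_BM did not, with -0.40 (SE 0.18, adjusted p = 0.0677). The VQ_LN call was lost in 8 of 13 settings and its sign turned among cells without proliferation UMIs (0.04, adjusted p = 0.961). A near-identical 3′ end is annotated in 1 other gene for each of Rps2, Rps26, Rplp1, Rpl36a and Rpl10 and in 2 for Rps24, none of which has a column in the tables, so how reads from them were assigned is not known here.

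To see which members left the common trend, the same fit was scaled to the summed UMIs of the members, so that a fold change is relative to ribosomal protein messages as a whole. In VQ_BM against WT_BM 12 members lay above the trend and 12 below, where 8.45% of all genes lay above and 21.8% below. In VQ_LN against WT_BM 13 lay above and 9 below, where 8.56% and 21.0% of all genes did. On this scale Rps2 lay 1.39 above the trend in VQ_BM (SE 0.17) and 1.27 in VQ_LN (SE 0.19). Rpl36al lay 1.73 and 1.61 below it (log2 deviations of -1.73, SE 0.21, and -1.61, SE 0.24). Rps2 above and Rpl36al below were called in all 11 alternative settings with a test in both comparisons, and Rps24 below in all 11 in VQ_BM.

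The other members above the trend in VQ_BM were Rpl22l1 (1.29), Rps15a-ps6 (1.07), Rps28 (0.72), Rpl12 (0.70), Rpl37rt (0.70), Rpl39 (0.60), Rpl18 (0.51), Rpl37 (0.51), Rps26 (0.49), Rpl4 (0.41) and Rplp0 (0.40), each a log2 deviation. Below it in VQ_BM, beside Rpl36al, were Rps24 (-1.02), Rpl10 (-0.98), Rpl19 (-0.73), Rpl27a (-0.72), Rps4x (-0.67), Rps6 (-0.62), Rpl35a (-0.54), Rpl13 (-0.46), Rpl22 (-0.45), Rpl41 (-0.39) and Rps29 (-0.38). In VQ_LN, Rps24 lay at -0.91, Rpl10 at -1.09, Rps4x at -0.69, Rps6 at -0.68 and Rpl19 at -0.67. Rps6 is the 40S protein phosphorylated by the S6 kinases, and Rps4x is the X-linked form of a 40S protein.

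Several members below the trend had a WT_BM level that fell among those of the VQ libraries. Rps6 stood at 535 CPM in WT_BM, 576 and 455 CPM in VQ_BM and 498 CPM in VQ_LN, with a fold change of -0.04 in VQ_BM (adjusted p = 0.913). Rps4x stood at 1016, 1086, 808 and 932 CPM in the same order, and WT_BM fell among the VQ libraries for both. Rpl19, a 60S protein at the subunit interface, stood at 806, 832, 602 and 754 CPM. The trend calls of Rps6 and Rps4x in VQ_BM and VQ_LN were each lost with DESeq2, with the preset coefficient and among cells without proliferation UMIs.

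Some paralogue pairs differed in their proportions between the WT_BM cells and the VQ cells used, which the Jchain rule took from opposite sides of its limit. Rpl36al made up 49.8% of the UMIs of Rpl36al and Rpl36a in WT_BM (95% exact binomial interval 42.8 to 56.8, 207 UMIs), 17.3% and 19.0% in VQ_BM and 17.4% in VQ_LN. The parent moved the other way: Rpl36a stood at 640 CPM in WT_BM, 1445 and 1115 CPM in VQ_BM and 1464 CPM in VQ_LN. Its log2 fold change was 1.01 (SE 0.18) in VQ_BM and 1.19 (SE 0.20) in VQ_LN. Both calls were lost with all cells, and that in VQ_BM also with the preset coefficient and without proliferation UMIs. The WT_BM share is thus set apart from the VQ shares by both genes. In the WT_BM cells left out for low Jchain it was 17.4% (12.7 to 22.9). In the few VQ_BM replicate 1 cells with high Jchain it was 60.7% (40.6 to 78.5, 17 of 28 UMIs), and in those of replicate 2 it was 17.6% (3 of 17 UMIs).

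Rpl22l1 and Rpl22 encode near relatives that can stand in for each other in the large subunit, and Rpl22 is known to repress Rpl22l1 by binding its message. Rpl22l1 stood at 135 CPM in WT_BM (22 UMIs), 489 and 498 CPM in VQ_BM and 449 CPM in VQ_LN. The fold change was 1.86 (SE 0.28, adjusted p = 7.19e-10) in VQ_BM and 1.73 (SE 0.30, adjusted p = 1.43e-07) in VQ_LN, and both calls held in all 13 settings. Rpl22 stood at 1053, 1219, 1066 and 1274 CPM, with fold changes of 0.12 (adjusted p = 0.611) and 0.28 (adjusted p = 0.268). In the cells used, Rpl22l1 made up 11.4% of the pair in WT_BM (7.28 to 16.7), 28.6% and 31.8% in VQ_BM and 26.1% in VQ_LN. The WT_BM cells left out lay between at 22.9% (18.0 to 28.5), with Rpl22l1 at 450 CPM (61 UMIs), near its VQ_LN level. In the VQ_BM cells left out for high Jchain the share was 17.9% in replicate 1 (5 UMIs of Rpl22l1, 23 of Rpl22). It was 14.3% in replicate 2 (1 and 6 UMIs). How far the shift depends on the Jchain rule was not tested.

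Rpl7l1, a relative of Rpl7 that acts in assembly of the large subunit, had few UMIs in WT_BM, and its annotated 3′ end is near-identical to those of transcripts of 3 other genes. It stood at 61.5 CPM there (10 UMIs) and at 178, 190 and 195 CPM in VQ_BM replicates 1 and 2 and VQ_LN. The fold changes were 1.57 (SE 0.39) and 1.66 (SE 0.41), both lost with DESeq2, without proliferating cells and on thinned cells. Its share of the pair with Rpl7 was 6.13% in WT_BM (2.98 to 10.99) and 11.2% to 11.4% in the VQ libraries, with intervals that overlap that of WT_BM. Rpl7 itself rose by 0.62 (SE 0.17) in VQ_BM and by 0.69 (SE 0.18) in VQ_LN, near the member median.

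**Figure D4:**
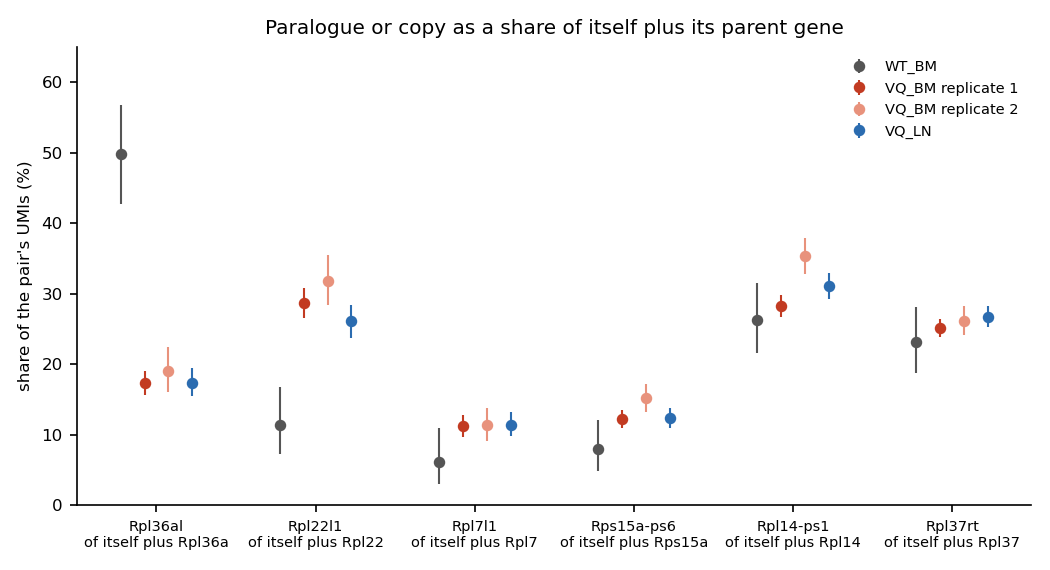
Paralogue or copy as a percentage of the UMIs of itself plus its parent gene in the cells used of each library, with 95% exact binomial intervals that cover counting error only. Rpl36al falls from 49.8% in WT_BM to below 20% in the VQ libraries, Rpl22l1 rises from 11.4% to between 26.1% and 31.8%, and the copies Rpl37rt and Rpl14-ps1 show overlapping intervals between WT_BM and at least 1 VQ library.

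Rps27l, the relative of Rps27 known as a p53 target, was the counted gene of its pair. It stood at 757 CPM in WT_BM, 1112 and 1125 CPM in VQ_BM and 1119 CPM in VQ_LN, with log2 fold changes of 0.56 (SE 0.18) and 0.56 (SE 0.19), lost in 4 and 5 of 13 settings. Rps27, a core subunit gene, had 1 UMI in all. Its annotated 3′ end is near-identical to that of Rps27rt, which had 0 UMIs. The core genes Rpl26, Rpl30 and Rpl34 had 0, 1 and 4 UMIs. A search from their own 3′ ends found no near-identical transcript of another gene. The 3′ end of the copy Rpl34-ps1, however, was near-identical to transcripts of Rpl34 and of further copies. The ribosome needs these proteins, so their counts were not read as expression levels.

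Other paralogues were at the limit of counting. Rpl10l, Rpl39l and Rps4l had 0 UMIs and Rpl3l had 2, all in VQ_BM replicate 1. Their parents Rpl10, Rpl39, Rps4x and Rpl3 had 124 to 165 UMIs in WT_BM alone. A count of 3 UMIs corresponds to 18.5 CPM in WT_BM and to 2.89 to 6.79 CPM in the VQ libraries. The remaining members under 3 UMIs were the copies Rplp2-ps1, Rps27rt and Rpl34-ps1, each at 0.

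The 4 tested copies were all called higher in VQ_BM and 3 of them in VQ_LN, where 17.7% and 16.2% of all genes were. Rpl14-ps1 stood at 523 CPM in WT_BM, 875 and 1113 CPM in VQ_BM and 973 CPM in VQ_LN. Its 3′ end is near-identical to that of its parent Rpl14, so their reads cannot be told apart with certainty. Rpl37rt stood at 462 CPM in WT_BM, 1139 and 1093 CPM in VQ_BM and 1185 CPM in VQ_LN, a log2 fold change of 1.28 (SE 0.20) and 1.36 (SE 0.21), both kept in all 13 settings. It made up 23.1% of its pair with Rpl37 in WT_BM (18.7 to 28.1) and 25.1% to 26.7% in the VQ libraries. Rps15a-ps6, whose 3′ end is near-identical to those of Rps15a and 3 other copies, rose by 1.64 (SE 0.30) and 1.52 (SE 0.32), but reads of these genes cannot be told apart with certainty. Rps15a-ps4 had 0 UMIs in WT_BM and 14, 18 and 18 in the VQ libraries, a level at least 1.47-fold higher in VQ_BM against a floor of 3 UMIs over WT_BM. Its VQ_BM call (adjusted p = 0.0475) was lost in 10 of 11 settings. Rps19bp1 stood at 36.9 CPM in WT_BM (6 UMIs) and 91.4, 95.03 and 113 CPM in the VQ libraries, and its VQ_BM call (adjusted p = 0.0388) was lost in 8 of 13 settings.

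Of the 3 stalk proteins, which recruit elongation factors to the large subunit, 2 were called higher in VQ_BM and all 3 in VQ_LN. Of all genes 17.7% and 16.2% were. Rplp0, the stalk base, stood at 2444 CPM in WT_BM, 4586 and 4982 CPM in VQ_BM and 5042 CPM in VQ_LN, with fold changes of 0.97 (SE 0.14) and 1.05 (SE 0.16) on the log2 scale, both lost with the preset coefficient. Rplp1 rose by 0.39 in VQ_BM (SE 0.13, adjusted p = 0.0141) and 0.52 in VQ_LN (SE 0.15, adjusted p = 0.00309). Rplp2 had 0.30 (adjusted p = 0.0959) in VQ_BM and rose by 0.53 (SE 0.16, adjusted p = 0.00441) in VQ_LN. The Rplp1 call in VQ_BM was lost in 8 of 13 settings and that in VQ_LN in 3, and the Rplp2 call in VQ_LN in 5. The difference between these proteins was not tested.

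Rpl5 and Rpl11, which with 5S RNA bind and inhibit the p53 regulator Mdm2, rose by 0.56 (SE 0.17) and 0.50 (SE 0.15) in VQ_BM. In VQ_LN they rose by 0.48 (SE 0.19, adjusted p = 0.0452) and 0.49 (SE 0.16, adjusted p = 0.014). Rpl23, another Mdm2 binder, had 0.35 (adjusted p = 0.0673) and 0.29 (adjusted p = 0.201) and was not called. The Rpl5 call in VQ_LN was lost in 11 of 13 settings, and those of Rpl5 and Rpl11 in VQ_BM with DESeq2, the preset coefficient, all cells, thinned cells and cells without proliferation UMIs.

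Rps19, the gene most often mutated in Diamond-Blackfan anaemia, stood at 1730 CPM in WT_BM, 3244 and 3217 CPM in VQ_BM and 2918 CPM in VQ_LN, and rose by 0.90 (SE 0.15) and 0.75 (SE 0.16). With all cells these were 0.30 and 0.16 and were not called, and both calls were also lost with the preset coefficient. The VQ_LN call of Rps19 was lost without proliferation UMIs too. Rps14, the 40S gene of the region lost in 5q- syndrome, stood at 4407, 5352, 5469 and 5308 CPM and was not called, with 0.30 (adjusted p = 0.0753) and 0.27 (adjusted p = 0.169). Rpsa, a 40S protein also known as the laminin receptor, rose by 0.95 (SE 0.15) and 0.76 (SE 0.17). Rpl38, known for selective translation of Hox messages, rose by 0.85 (SE 0.17) and 0.98 (SE 0.19), and Rpl3, at the peptidyl transferase centre, by 0.80 (SE 0.17) and 0.73 (SE 0.18). The calls of Rpsa, Rpl38 and Rpl3 in both comparisons were lost with the preset coefficient, and those of Rpl3 also with all cells and without proliferation UMIs. The Rpl38 call in VQ_BM was lost with all cells too. In VQ_LN the Rpsa call was also lost without proliferation UMIs, and the Rpl3 call also with DESeq2.

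Between the 2 myeloma sites no member was called. None of the 82 members passed an adjusted p of 0.05 in VQ_LN against VQ_BM with edgeR, with 1 at an unadjusted p under 0.05, and DESeq2 called none. Of all genes, 1.68% were called higher and 1.34% lower in VQ_LN by edgeR. The median member differed by 0.00 and the largest difference was in Rpl27a, at 0.45 (SE 0.17, adjusted p = 0.143). Rpl27a stood at 372 and 324 CPM in VQ_BM and 479 CPM in VQ_LN. Scaled to the members' sum, none was called either with edgeR or DESeq2 (1 at an unadjusted p under 0.05), where 1.62% of all genes lay above and 1.31% below. The VQ_BM replicates themselves differed over 81 members by a median of -0.09 (replicate 2 minus replicate 1, log2), from -0.69 in Rpl15 to 0.40 in Rps15a-ps6, with 62 lower in replicate 2.

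Ribosomal proteins under other names did not all move with the members. Gnb2l1 (Rack1), a scaffold on the 40S head, stood at 2105 CPM in WT_BM and 4035, 4249 and 4455 CPM in the VQ libraries, and rose by 0.98 (SE 0.14) and 1.08 (SE 0.16). Fau, which encodes a ubiquitin-like protein fused to a 40S protein, fell by 0.45 (SE 0.16, adjusted p = 0.0197) and by 0.61 (SE 0.18, adjusted p = 0.00464).

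Of 22 other TOP messages, 15 rose and 1 fell in VQ_BM, with a median of 0.75, and 11 rose and 1 fell in VQ_LN, with a median of 0.70. Of all genes 17.7% were called higher and 12.0% lower in VQ_BM, and 16.2% and 11.9% in VQ_LN. Nap1l1, a histone chaperone, rose by 2.47 (SE 0.28) and 2.54 (SE 0.29), and Npm1, the nucleolar chaperone nucleophosmin, by 2.20 (SE 0.19) and 2.09 (SE 0.21). The elongation factors Eef1b2 and Eef2 rose by 1.18 (SE 0.16) and 1.09 (SE 0.16) in VQ_BM. Tpt1, a growth-related protein with a classical TOP tract, fell from 3551 CPM in WT_BM to 2062 and 1550 CPM in VQ_BM and 1777 CPM in VQ_LN. Its log2 fold change was -0.97 (SE 0.14) and -0.999 (SE 0.16).

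Of 24 tested genes for chaperones, assembly factors and carriers of ribosomal proteins, 11 rose and 1 fell in VQ_BM, with a median of 0.87, and 10 rose and 1 fell in VQ_LN, with a median of 1.06, beside the same 17.7% and 12.0% of all genes in VQ_BM and 16.2% and 11.9% in VQ_LN. The highest in VQ_BM were Grwd1, a chaperone of Rpl3, and Nle1, a factor of large subunit maturation, which had 2 and 1 UMIs in WT_BM. Their ratios of VQ_BM to WT_BM were 8.17 (95% counting interval 2.22 to 68.1) and 7.46 (1.29 to 299). In VQ_LN they were 7.72 (2.06 to 64.9) for Grwd1 and 5.69 (0.94 to 233) for Nle1, which was not called there (adjusted p = 0.0781). Gnl3l, a nucleolar GTPase, fell by 2.53 (SE 0.53) in VQ_BM and by 1.43 (SE 0.51) in VQ_LN, from 17 UMIs in WT_BM.

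Of 14 tested genes that control TOP messages, 3 rose and none fell in each comparison with WT_BM, while 17.7% of all genes were called higher in VQ_BM and 16.2% in VQ_LN. Larp1, which binds the TOP tract, rose by 0.90 (SE 0.34) and 1.00 (SE 0.35). Eif4ebp1, an mTOR target that binds Eif4e and holds back initiation, rose by 1.40 (SE 0.34) and 1.41 (SE 0.36), and Eif4e, the cap-binding factor, by 1.58 (SE 0.46) and 1.53 (SE 0.48). In WT_BM these rest on few counts, with 17 UMIs of Larp1, 15 of Eif4ebp1 and 7 of Eif4e. Mtor had 6 UMIs in WT_BM and was not called, with -0.14 (SE 0.66, adjusted p = 0.898) in VQ_BM. None of the genes in these lists was called between VQ_LN and VQ_BM by edgeR.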

How the data were processed

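The values deposited by the authors are unscaled UMI counts, 1 per gene and cell, of cells that passed a knee filter per the names of the tables. Libraries were made on the Bio-Rad ddSEQ with Illumina's SureCell 3′ kit, per the labels' protocols. Reads were placed on mm10, per the submitters' processing notes. The aligner, the counter, its handling of multi-mapped reads and of strand are not given in the sources used here.

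Members were taken by symbol, and the members and gene lists were chosen with earlier results of these data known. Their counts are no independent evidence. Cells were chosen by a Jchain share of 5%, 5, 3, 2 and 0 cells lay between 4% and 6% in WT_BM, VQ_BM replicates 1 and 2 and VQ_LN, and no doublet caller was run. UMIs were summed per library, and Jchain was left out of library sizes and tests. edgeR 4.0.16 (R 4.3.3, filterByExpr, glmQLFit and glmQLFTest) fitted 3 group means over 4 libraries, with 1 residual degree of freedom from the VQ_BM pair. The single WT_BM and VQ_LN libraries are assumed to vary like it. The fit pooled this spread fully over genes, so a gene's own difference between the replicates does not enter its SE or p-value. The SE is the log2 fold change over the square root of F. The trend fit used the members' summed UMIs as library size. Calls are a Benjamini-Hochberg adjusted p under 0.05 over 8414 genes. A chi-square test of the VQ_BM pair's counts gave 1.57 per degree of freedom (9020 genes), above counting noise, so the pair was kept as 2 libraries. Tested on simulated data of 8414 genes, VQ_BM against WT_BM recovered 35 of 100 genes changed 2-fold and 87 of 100 changed 4-fold, with 7 false among 129 calls. VQ_LN against WT_BM recovered 24 and 85, with 5 false among 114. The simulation gave every library the spread fitted from the VQ_BM pair, and changed genes were drawn from the better counted ones. It could therefore not check whether WT_BM and VQ_LN vary like that pair, and its false calls hold only under that assumption.

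Named with values are the listed paralogue pairs and members by role, up to 5 called members at each end of each comparison with WT_BM and of each trend comparison, and in each pathway list the 2 highest and 2 lowest called genes in VQ_BM. Eef1b2, Eef2, Mtor, Rpl14-ps1 and the remaining members off the trend were added after their values were seen. A further listed gene is not reported here. Gene coordinates and 3′ ends come from GENCODE vM21, which holds 94 of the 95 members. A near-identical end is at least 97% identity over at least 90 of the last 100 bases (blastn 2.17.0). Alternatives were TMM, DESeq2 size factors, Jchain in the library size, no filter, DESeq2 1.42.0, a preset coefficient of variation of 0.2, Jchain limits of 2% and 10%, all cells, cells with at least 1000 UMIs, cells without other types' markers (fewer than 3 such UMIs), cells without proliferation UMIs, thinning to 500 UMIs, and leaving out each VQ_BM replicate.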

Additional observations from a re-analysis of the deposited data

How the results depend on the processing

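Of 51 members higher in VQ_BM, 11 kept the call in all 13 alternatives (Rps26, Rps15a-ps6, Rpl27, Rpl37, Rps2, Rpl12, Rpl22l1, Rpl37rt, Rpl18, Rpl4 and Rpl39) and 50 kept the sign, and of 54 in VQ_LN, 5 kept the call (Rpl23a, Rps2, Rpl12, Rpl22l1 and Rpl37rt) and 53 the sign. Members higher in VQ_BM numbered 32 with DESeq2, 13 with the preset coefficient, 26 with all cells and 28 without proliferation UMIs, and in VQ_LN 29, 9, 22 and 30. The shares of all genes called higher in these settings were 4.43%, 11.4%, 10.9% and 7.05% in VQ_BM and 4.96%, 9.70%, 10.2% and 6.11% in VQ_LN (for DESeq2, of genes with an adjusted p). In VQ_BM 1 member was lower with Jchain in the library size, DESeq2, the preset coefficient, no proliferation UMIs or thinned cells. In VQ_LN 1 was lower with Jchain in the library size, either Jchain limit or at least 1000 UMIs per cell, and 0 with DESeq2, the preset coefficient, all cells or no proliferation UMIs. The median log2 fold change in VQ_BM was 0.90 with Jchain in the library size, 0.49 with DESeq2 size factors, 0.54 with DESeq2, 0.37 with all cells and 0.53 thinned, and ranged from 0.57 to 0.61 with a VQ_BM replicate left out. In VQ_LN it was 0.90 with Jchain in the library size, 0.52 with DESeq2 size factors, 0.61 at the 10% limit, 0.38 with all cells and 0.72 without proliferation UMIs. Counting Jchain in the library size moved the median of all genes from 0.22 to 0.56 in VQ_BM and from 0.16 to 0.51 in VQ_LN. It called 72 members higher and 1 lower in VQ_BM, and 73 and 1 in VQ_LN. The calls among all genes rose too, to 25.9% higher in VQ_BM and 24.5% in VQ_LN, with 8.61% lower in each.

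Above the trend in VQ_BM lay 2 members with DESeq2, 2 with the preset coefficient, 3 without proliferation UMIs and 4 thinned, and below it 3, 3, 3 and 4. Of all genes with an adjusted p, 1.33%, 5.43%, 3.42% and 4.75% lay above in these settings. Below lay 7.05%, 16.7%, 15.8% and 17.3%. The members' shares were 2.47%, 2.44%, 3.70% and 4.94% above and 3.70%, 3.66%, 3.70% and 4.94% below. In VQ_LN 1 lay above with DESeq2, 1 with the preset coefficient, 8 with all cells, 1 without proliferation UMIs and 4 thinned, and below it 3 with DESeq2, 1 with the preset coefficient, 4 without proliferation UMIs and 4 thinned. Of all genes, 1.11%, 4.87%, 9.61%, 2.72% and 3.58% lay above in these settings, in the same order. Below lay 5.60%, 14.7%, 17.2% and 15.7%. The share in WT_BM was 14.1% with all cells and 9.67% of all UMIs, and without proliferation UMIs it was 18.9% in VQ_BM replicate 2 and 20.5% in VQ_LN. Rpl10 turned to 0.0446 in VQ_LN without proliferation UMIs, and with all cells Rps27l turned to 0.47 and 0.49 above the trend in VQ_BM and VQ_LN. The sets of genes and cells were smaller after thinning or without proliferation UMIs. The cause of the differences between settings was not tested. No paired analysis was possible because only the VQ_BM labels carry replicate numbers. Without 1 VQ_BM replicate no residual degree of freedom was left, so there are fold changes and no counts of calls. In WT_BM the median member with at least 3 UMIs in all had 171 UMIs, which limits the precision of each fold change.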
